A study of Mus musculus with 10 samples.

Results

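RNA polymerase II (Pol II) was examined at 6 genes of the extracellular matrix and the mesenchymal cell state: Col1a1, Col1a2, Col3a1, Fn1, Vim and Thy1. For each gene a fixed window on the mouse build mm9 was used, and every Pol II peak sharing at least 1 bp with the window was taken as a call. The 6 windows span 238.0 kb together. They held 24 of the 45651 Pol II peaks of both lists, 18 of 32345 in ES cells and 6 of 13306 in primary mouse embryonic fibroblasts (MEFs). The windows were set by gene, not by measured values, although the genes were chosen with earlier results of these data known.

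The peaks come from chromatin immunoprecipitation sequencing (ChIP-seq), which maps the DNA that a protein occupies, with the N-20 antibody to Pol II. One group is ES-E14TG2a, an established mouse embryonic stem cell line, grown on gelatin with serum and LIF, a cytokine that keeps such cells undifferentiated. The other is primary MEFs, taken from E12.5 embryos, passaged 3 to 5 times and kept in the same kind of medium with serum but no LIF. No genetic change or drug treatment is named for either group, and the sources used here do not say how many embryos gave the MEFs. Each group is 1 library, so no difference below has a replicate check and no test between cell types was possible. The number of reads per library is unknown. A window without a peak therefore does not show that Pol II was absent.

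Pol II transcribes protein-coding genes, and its ChIP-seq peaks usually lie where it gathers near the start of an active gene, with weaker signal along the gene and past its end. Col1a1 and Col1a2 encode the chains of type I collagen, the main fibre of skin, bone and tendon, and Col3a1 encodes type III collagen, which forms fibres with it. Fn1 encodes fibronectin, a matrix glycoprotein that links cells to collagen and is made by many cell types. Vim encodes vimentin, the intermediate filament of mesenchymal cells, and Thy1 encodes a GPI-anchored surface protein used as a marker of fibroblasts and of mouse T cells.

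RefSeq promoter sequences were at hand for 3 of the 6 genes, Col1a2, Col3a1 and Vim. These 3 are shown because no promoter was at hand for the other genes. As in every window with a call, their Pol II peaks were in 1 cell type only: Col1a2 and Col3a1 in MEFs, Vim in ES cells. A link between promoter sequence and cell type was not tested. Each run gives the 250 bases before the annotated start, 5′ to 3′ on the plus strand of GRCm38.p6. These positions are of another build than the mm9 positions of the peaks, and the sequences were not placed on the peaks. Capitals mark the motifs searched on both strands: the TATA box as TATAAA or, on the other strand, TTTATA, the CCAAT box as CCAAT or ATTGG, and the GC box as GGGCGG or CCGCCC.
Col1a2, chr6:4505368-4505617: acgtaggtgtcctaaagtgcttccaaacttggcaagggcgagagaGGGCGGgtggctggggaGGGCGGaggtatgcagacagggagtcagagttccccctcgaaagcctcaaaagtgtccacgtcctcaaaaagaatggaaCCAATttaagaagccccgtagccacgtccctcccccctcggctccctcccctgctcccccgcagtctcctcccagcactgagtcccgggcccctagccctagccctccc
Col3a1, chr1:45311288-45311537: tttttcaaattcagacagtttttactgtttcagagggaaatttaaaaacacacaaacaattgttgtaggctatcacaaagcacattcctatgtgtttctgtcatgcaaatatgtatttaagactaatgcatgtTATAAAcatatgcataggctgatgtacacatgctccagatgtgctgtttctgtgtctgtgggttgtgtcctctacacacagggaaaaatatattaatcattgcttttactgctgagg
Vim, chr2:13574061-13574310: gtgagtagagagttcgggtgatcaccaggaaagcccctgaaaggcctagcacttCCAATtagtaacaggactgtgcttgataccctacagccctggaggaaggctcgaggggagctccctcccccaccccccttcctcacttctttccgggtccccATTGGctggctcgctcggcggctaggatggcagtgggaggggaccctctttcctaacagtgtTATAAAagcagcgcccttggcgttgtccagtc

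The promoters differed in composition. G and C made up 62.0% of the Col1a2 sequence and 58.4% of the Vim sequence, but 35.2% of the Col3a1 sequence, against a median of 52.4% over the 32851 promoters of the table. The Col1a2 sequence held 11 CpG dinucleotides, the Vim sequence 8 and the Col3a1 sequence 0. The Vim sequence held TATAAA ending 26 bases before the start, and the Col3a1 sequence held it 111 bases before the start. The motif occurred in 12.4% of all promoters. CCAAT occurred in the Col1a2 sequence and on both strands of the Vim sequence, and in 33.8% of all promoters. GGGCGG occurred at 2 places of the Col1a2 sequence, and in 32.7% of all promoters. The 3 motifs do not overlap each other in these sequences, and a match describes letters only.

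The 6 windows did not share 1 pattern of Pol II calls. Col1a2, Col3a1 and Thy1 had peaks in MEFs and none in ES cells, Fn1 and Vim had peaks in ES cells and none in MEFs, and Col1a1 had none in either list. Col1a1, Fn1 and Vim are known as strongly transcribed genes of cultured fibroblasts, and the reads behind their empty MEF windows were not analysed here, so these 3 zeros describe the deposited list only. A call in MEFs, which a list of fibroblast genes would imply, was thus found at 3 of the 6 windows. At Fn1 and Vim the calls were in ES cells only. Of the 5 windows with a call, 3 held more Pol II base pairs in MEFs and 2 held more in ES cells. The whole genome was cut into 40 kb tiles to give the rate outside these genes. Of 15522 tiles with a Pol II peak in either list, 33.7% held more MEF than ES base pairs. Peaks of MEFs only were found in 17.8% of these tiles, peaks of ES cells only in 34.1%, and peaks of both lists in 48.2%. None of the 5 windows held peaks of both lists. The windows are 16001 to 78001 bp long, so the tiles match them only roughly, and no test was made against these rates.

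**Figure D1:**
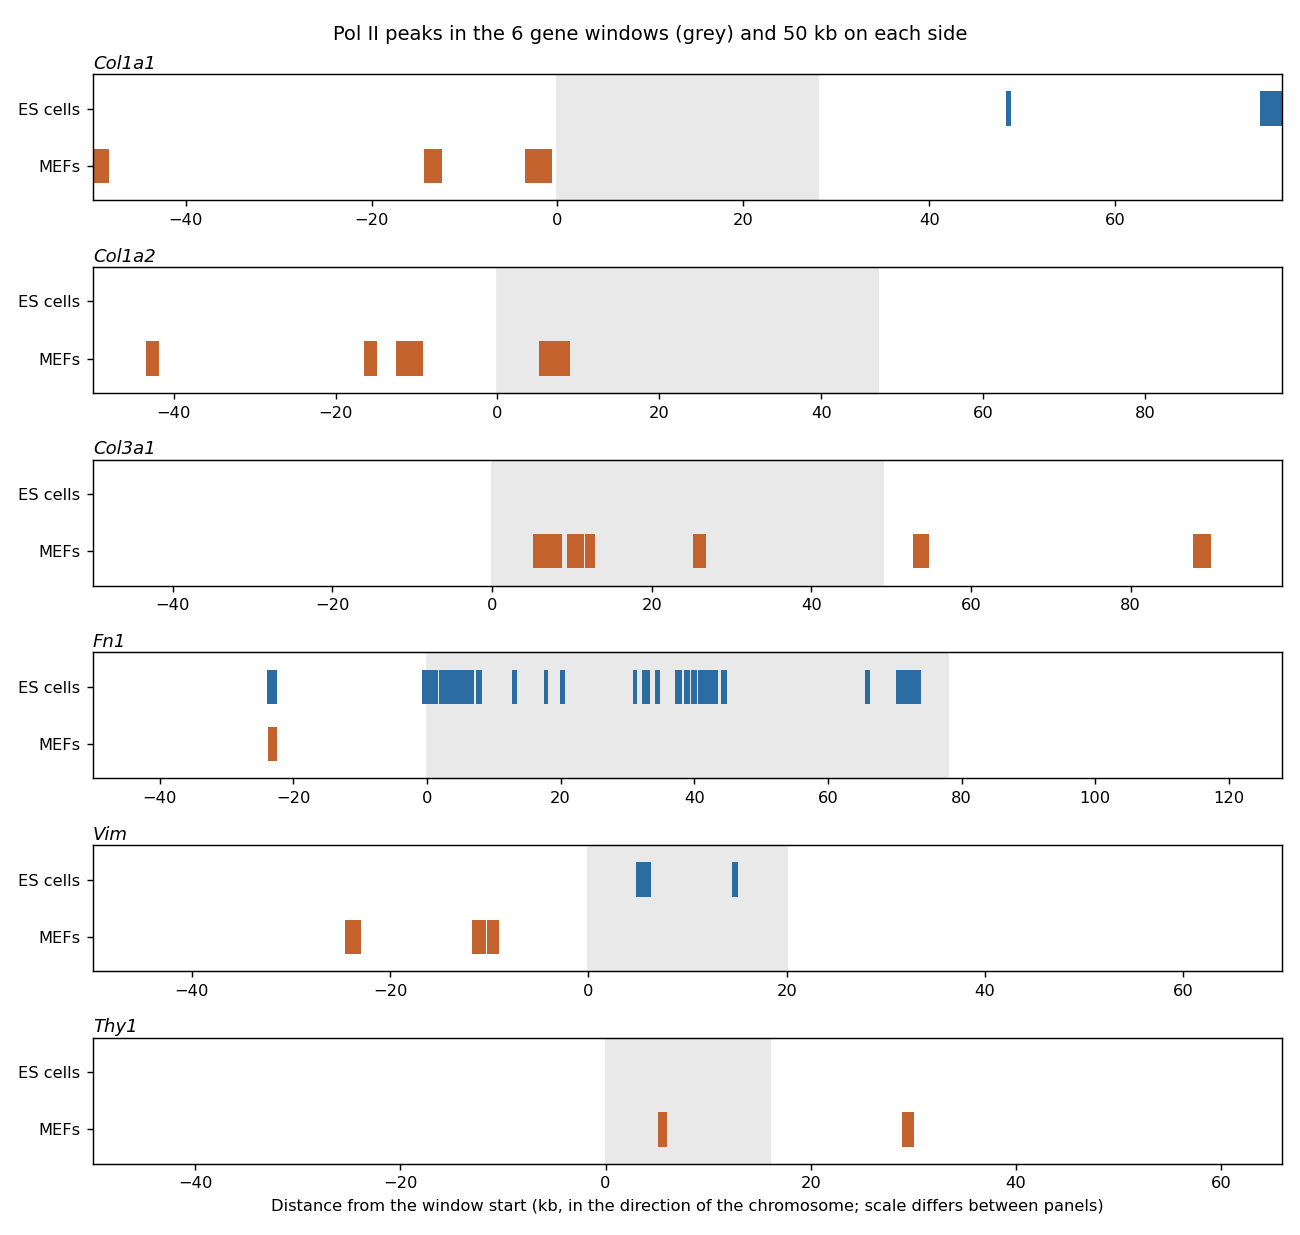
Map of Pol II peaks at the 6 genes, with the distance from the window start in kb on the x axis, ES cells (blue) above MEFs (orange) in each panel, and the window in grey. Col1a2, Col3a1 and Thy1 have peaks of MEFs only, Fn1 and Vim have peaks of ES cells only, and the Col1a1 window is empty in both.

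Among the collagen genes, Col1a2 carried the Pol II peak that ranked highest in its list of all 24. Its window, on chromosome 6 from 4450000 to 4497000, held 1 MEF peak of 3927 bp, from 4455079 to 4459005, and 0 ES peaks. The peak covered 8.36% of the window. Its deposited score, a number of unstated scale that is used here only for order within a list, was 1087.1. This placed it at rank 47 of 13306, or 0.353% from the top of the MEF list. It was also among the wide peaks, at rank 513 by width. It began 5.08 kb from the lower edge of the window, on the side where the gene starts, since Col1a2 lies on the plus strand. The nearest ES peak was 91.0 kb away. In the 10% of MEF peaks with the highest scores, 9.02% had no overlapping ES peak, and the Col1a2 peak was one of these. The peak lies wholly inside a window without ES peaks, so its place among them follows from that and is not a separate result.

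Col3a1 held the most MEF peaks of the 6 windows, and they stretched over part of the gene's window. The window, on chromosome 1 from 45363000 to 45412000, held 4 MEF peaks that covered 8639 bp, or 17.6% of it, and 0 ES peaks. The first peak, from 45368121 to 45371785, was 3665 bp wide with a score of 280.32, at rank 2674 or 20.1% from the top. The other 3 scored 81.07, 96.3 and 58.5 and lay 71.6%, 63.4% and 89.2% from the top, all below the median score of the MEF list, 131.545. They began 9.38, 11.64 and 25.24 kb from the lower edge of the window, against 5.12 kb for the first. Col3a1 lies on the plus strand, so the scores were highest on the side where the gene starts and lower further along it. No MEF peak lay in the last 22.26 kb of the window. The ES list was empty far beyond the window: no ES peak lay in a stretch of 1645.6 kb around Col3a1, from 44206104 to 45851691. Stretches at least as long made up 0.869% of the 32324 intervals between neighbouring ES peaks, or 281 by number. This share counts intervals, whose median length was 5.5 kb, and not the part of the genome that they hold. Long stretches hold more of the genome than their share by number. The value therefore does not show how rare such a place is.

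Col1a1, whose product pairs with that of Col1a2, had no Pol II peak in its window in either cell type. The window lies on chromosome 11 from 94792000 to 94820000. In MEFs, peaks came close to its lower edge. The nearest, from 94789935 to 94791378, ended 621 bp before the window, with a score of 68.02 and a position 80.4% from the top of the list. Next to it lay a peak from 94788556 to 94789850 that scored 112.09, 56.6% from the top. With the window widened by 5 kb on each side, these 2 peaks gave the wider window 2739 covered bp in MEFs and still 0 in ES cells. The nearest ES peak lay 20.25 kb past the higher edge. Of the 2 genes of type I collagen, only Col1a2 was therefore called inside its window in MEFs. The MEF peaks beside the Col1a1 window were not assigned to a gene.

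Thy1 had 1 MEF peak of low rank. Its window, on chromosome 9 from 43846000 to 43862000, held a peak of 826 bp from 43851161 to 43851986 and 0 ES peaks. The score of 73.67 placed it at rank 10137 of 13306, or 76.2% from the top, and the call was lost when only peaks at or above the median score of the list were kept. The peak covered 5.16% of the window and began 5.16 kb from its lower edge. The nearest ES peak was 56.8 kb away. Thy1 thus stood with Col1a2 and Col3a1 by cell type but far from Col1a2 by score rank.

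Over these 3 windows, all 6 MEF peaks lacked an overlapping ES peak. This follows from the grouping, since the 3 windows hold no ES peak and the 6 peaks lie wholly inside them. Of all MEF peaks, 37.9% lacked an overlapping ES peak, and the 6 peaks cannot be read as an excess over this share. Peaks in 1 window share their gene and are not independent, so the 6 peaks stand for 3 genes. Of the 6, 2 scored at or above the median of their list, 1 lay in its top 10%, and 5 were wider than its median width of 1087 bp.

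Fn1 showed the opposite picture, with the densest Pol II coverage of all windows in ES cells and no call in MEFs. Its window, on chromosome 1 from 71627000 to 71705000, held 16 ES peaks that covered 23538 bp, or 30.2% of it. Scores ranged from 51.64 to 965.88 with a median of 79.53, and 4 of the 16 were at or above the median score of the ES list, 122.02. The count depends on the length of the list and on how peaks are split: it was 8 with peaks at most 1 kb apart joined, and 4, over 13588 bp, with the ES list limited to its 13306 highest-scored peaks. The highest-scored peak, from 71697214 to 71700858, was 3645 bp wide, and its score of 965.88 gave it rank 2104 of 32345, or 6.5% from the top. It ended 4.14 kb before the higher edge of the window. Fn1 is transcribed towards lower coordinates, so this is the side where the gene starts.

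The next highest peak of Fn1 lay at the other end of the window. It spanned 5243 bp from 71628781 to 71634023, began 1.78 kb from the lower edge, scored 894.33 and ranked 2310, or 7.14% from the top. Beside it, a peak from 71626310 to 71628710 scored 456.3 (15.4% from the top) and reached 690 bp out of the window. The 2 highest peaks held 37.8% of the covered base pairs. Between these 2 peaks lay 13 others, of which 11 were narrower than 1 kb, with scores from 51.64 to 221.03 over the 13. The 221.03 belonged to a peak of 2989 bp from 71667504 to 71670492, near the middle of the window. The longest stretch without an ES peak inside the window, 20.6 kb, separated the middle peaks from those on the side where the gene starts. The ES calls thus had high scores at both ends of the window and lower ones between.

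**Figure D2:**
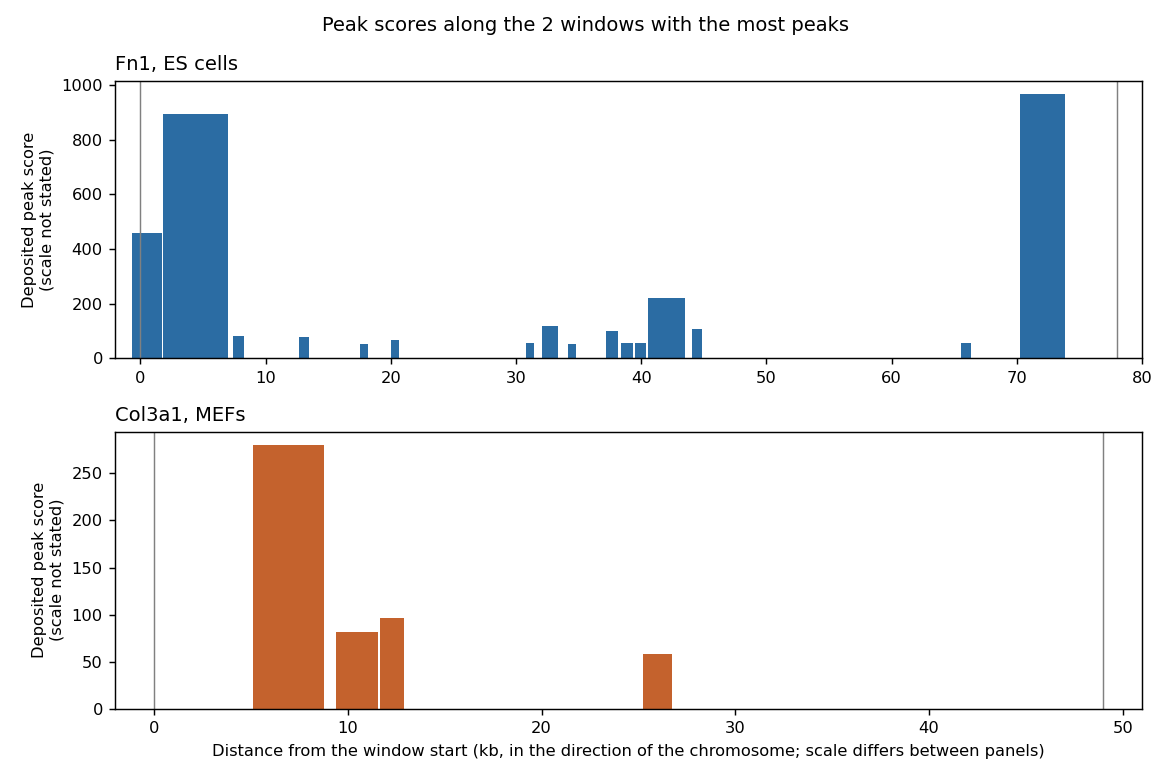
Deposited peak score (y axis, scale not stated and not comparable between the panels) along the Fn1 window in ES cells and the Col3a1 window in MEFs, with the distance from the window start in kb on the x axis, each bar as wide as its peak, and grey lines at the window edges. Fn1 has peaks of 894.33 and 965.88 near its 2 ends, and Col3a1 has its highest peak, 280.32, near the lower edge.

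No MEF peak lay in the Fn1 window, and the nearest was 22.4 kb from its lower edge. That peak, from 71603266 to 71604601, scored 315.15 and overlapped an ES peak from 71603023 to 71604631 that scored 443.16, so the 2 lists shared a site on this side of the window. It lies on the side of Atic, the next protein-coding gene in the RefSeq order on GRCm38. Past it, the MEF list had no peak for 668.2 kb, to 72272772. Stretches at least as long made up 5.98% of the 13285 intervals between neighbouring MEF peaks, whose median length was 48.1 kb. This share, too, is by number and not by length. It does not show how rare such a place is in the genome. Dense ES coverage without a MEF peak was also counted over the whole genome, with the tiles at Fn1 not left out. Of 750 tiles of 40 kb covered in ES cells at least as densely as the Fn1 window, 27.7% held no MEF peak. The tiles are shorter than the window of 78001 bp and so can more readily be free of MEF peaks. Among the 10% of ES peaks with the highest scores, 41.1% had no overlapping MEF peak, and the 2 highest Fn1 peaks were among these. Both lie wholly inside a window without MEF peaks, so this follows from the empty MEF window and is not a separate result.

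Vim was likewise called in ES cells only, with fewer peaks. Its window, on chromosome 2 from 13490000 to 13510000, held 2 ES peaks that covered 2244 bp, or 11.2% of it, and 0 MEF peaks. The first, from 13494749 to 13496333, was 1585 bp wide and scored 385.03, at rank 5891 or 18.2% from the top. It began 4.75 kb from the lower edge, the side where Vim, a gene of the plus strand, starts. The second, from 13504475 to 13505133, was 659 bp wide and scored 59.6, 87.6% from the top. In MEFs the nearest peaks lay before the window. They spanned 13479736 to 13480964 (score 95.81) and 13478300 to 13479651 (score 144.24), 9.04 and 10.35 kb from its lower edge. No MEF peak followed for 513.7 kb.

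All 18 ES peaks of Fn1 and Vim lacked an overlapping MEF peak, as did 73.0% of all ES peaks, and they stand for 2 genes. This too follows from grouping windows without a MEF peak, except for the 690 bp of 1 Fn1 peak outside its window. Of the 18, 5 scored at or above the median of the ES list, 2 lay in its top 10%, and 7 were wider than its median width of 955 bp.

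**Figure D3:**
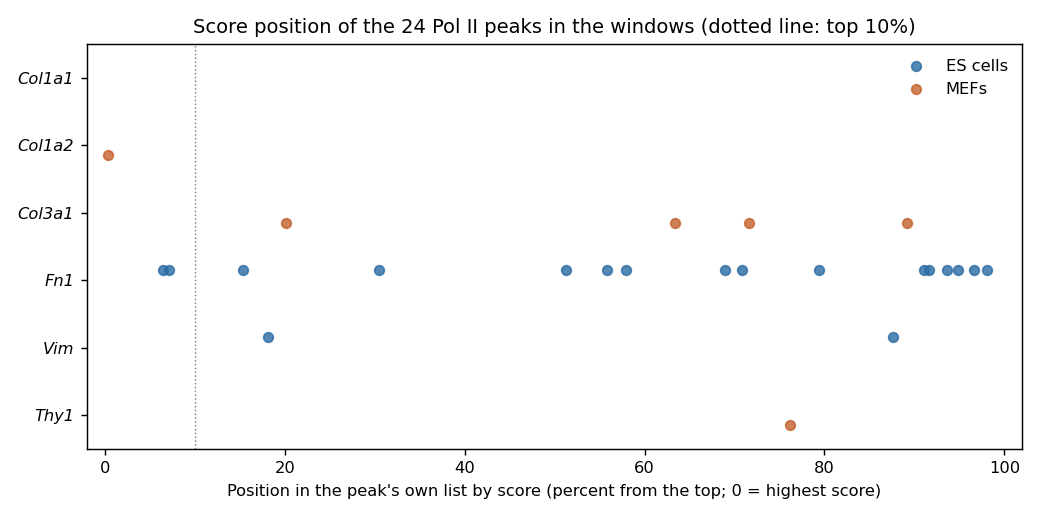
Position of each of the 24 peaks in its own list by score, in percent from the top (x axis, 0 is the highest score), by gene, with ES cells in blue and MEFs in orange and a dotted line at 10%. The MEF peak of Col1a2 lies at 0.353%, 2 ES peaks of Fn1 at 6.5% and 7.14%, and the other 21 peaks lie beyond the line.

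Summed over the 6 windows, ES peaks covered 25782 bp, 10.8% of the windows, and MEF peaks covered 13392 bp, 5.63%. The sum of ES cells came mostly from Fn1, and that of MEFs mostly from Col3a1, with 8639 bp. The lists differ in length, with 45.4 Mb covered in ES cells and 18.8 Mb in MEFs. As a share of all base pairs in their list, the windows held 0.0568% in ES cells and 0.0714% in MEFs. The order of the cell types turned with this scaling. It did not turn by number of peaks, with 0.0557% of all ES peaks and 0.0451% of all MEF peaks. Nor did it turn with the ES list limited to the length of the MEF list, where ES peaks covered 15173 bp against 13392 bp in MEFs. By windows called, the counts were 2 in ES cells and 3 in MEFs, of the 5 windows with a peak of either list. Of the 40 kb tiles with a peak of either list, 82.2% held an ES peak and 65.9% a MEF peak. The windows are too few to be read as a contrast with the tiles, and their genes were chosen with earlier results known.

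The surroundings of the windows were covered more in MEFs. In the 50 kb on each side of the 6 windows, MEFs had 15 peaks that covered 24.1 kb (4.01%), and ES cells had 4 peaks that covered 4.5 kb (0.756%). Of the 12 flanks, 7 held a peak, and 5 of these held more MEF base pairs and 2 more ES base pairs. Over the whole genome the ES list covered more, 45.4 Mb against 18.8 Mb in MEFs. Of the 40 kb tiles with a peak of either list, 33.7% held more MEF base pairs. The flanks are 50 kb long, and no test was made against this rate. The lower flank of Col1a2 held 3 MEF peaks over 6527 bp, among them 4437470 to 4440783 with a score of 381.41, 10.7% from the top. The lower flank of Col1a1 held 4 MEF peaks over 6426 bp, the highest, from 94742037 to 94743759, with a score of 631.25 and a position 2.71% from the top. The higher flank of Col3a1, on the side of the collagen gene Col5a2, held 3 MEF peaks over 4375 bp. At Vim, whose window had ES peaks only, all 3 flank peaks were of MEFs and covered 4208 bp. Flank peaks were not assigned to genes.

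**Figure D4:**
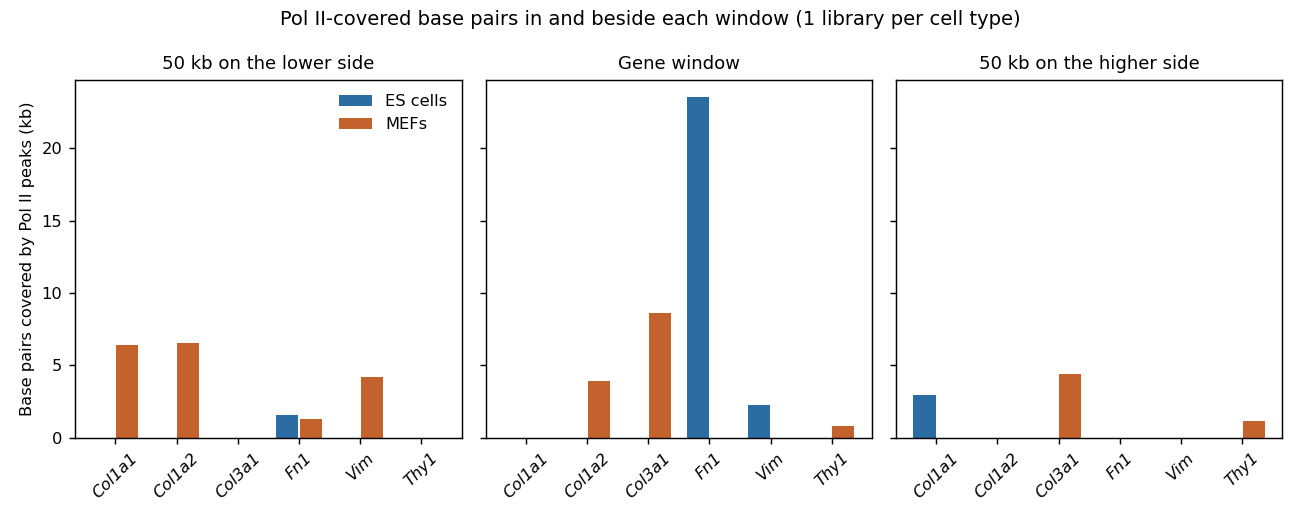
Base pairs covered by Pol II peaks, in kb (y axis), in the 50 kb below, in the window of, and in the 50 kb above each gene, with ES cells in blue and MEFs in orange, 1 library each. The Fn1 window in ES cells is the tallest bar at 23.54 kb, and the flanks hold 24.1 kb in MEFs against 4.5 kb in ES cells in all.

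None of the 6 lists of Pol III subunits had a peak in any of the windows. These lists hold only 13 to 317 peaks each over the whole genome, so empty windows say little about these genes. The nearest Pol III peak to any window was 900446 bp from that of Col1a1.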

How the data were processed

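Pol II ChIP-seq peak lists of ES-E14TG2a cells and primary MEFs were used, 1 library each, with the 6 Pol III lists for 1 count. Inputs were not analysed here. CASAVA 1.8, Bowtie, SAMtools and HOMER and the build mm9 are named in the submitters' processing notes. For caller settings, control and depth: not given in the sources used here. The deposited score of each peak is the authors' own, of unstated scale, and was used only for ranks within a list (1 is the highest). Peak names are numbered without a gap in both Pol II lists. Fixation was at 80% confluency and sheared chromatin averaged 200 to 700 bp, per the labels' protocols.

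Starts were read as 0-based and are printed 1-based. Covered base pairs are the union of peaks inside a window. Python 3.11.15, numpy 2.4.6, pandas 2.3.3 and matplotlib 3.10.9 were used, and the interval functions were tested on simulated data. Gene names follow the windows. RefSeq (GRCm38) gave the neighbour order for the 6 symbols, all on the same chromosome, and promoters for 3. No mm9 annotation was used, so no peak was assigned to a promoter, exon or intron, and the planned lists of other matrix genes and of ES cell markers were not run. All 6 members are named, with each peak in their windows except for 12 lower-scored ES peaks of Fn1, which are given by count and range. Members and lists were chosen with earlier results of these data known. Alternatives changed the window by 5 kb, the overlap to 50% of the peak, the score minimum, the ES list length, the joining of peaks within 1 kb, the ranking measure and the tile size.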

Additional observations from a re-analysis of the deposited data

How the results depend on the processing

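The cell type with more covered base pairs did not change for any of the 6 windows under the alternatives for covered base pairs, apart from Thy1, which lost its call above the median score, and Col1a1, which gained MEF calls in the wider window. Only widening could have added a peak to an empty window, and with it still no window held peaks of both lists. Keeping only peaks at or above the median score of their list left 5 calls and 15173 bp in ES cells and 2 calls and 7592 bp in MEFs, and 2 windows without a peak. Limiting the ES list to its 13306 highest-scored peaks also left 5 calls and 15173 bp. Joining peaks at most 1 kb apart left 10 ES calls, and widening the windows by 5 kb left 0 windows without a peak. Of 81 alternative values for single genes that could differ from the main value, 64 stayed within 1.5 times the main value and 17 did not, among them Fn1, with 4 calls and 13588 bp in the shortened ES list. Tile shares moved by less than 1.5 times with tiles of 20 or 80 kb. With 1 library per cell type there is no replicate error, and depth is unknown. No paired analysis was possible because each group is 1 library.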
